A study of Homo sapiens with 6 samples.

Results

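Epithelial cells hold to one another through several kinds of junction, and 75 genes of these junctions were followed here in prostate cancer cells with less MTA1. The genes were chosen by symbol among the protein-coding rows of the count table, without use of their values. They are the claudins, the cadherins other than CDH1 and CDH2, the desmosomal cadherins and plakophilins, DSP and JUP, the TJP scaffolds of the tight junction, the catenins, the connexins of the GJA, GJB and GJC series, the nectins, and OCLN, F11R, EPCAM and CGN. They make up 75 of the 30651 genes listed, and 36 of them had enough counts to be tested, of 15423 tested in all.

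The 6 RNA-seq libraries came from PC-3, a prostate cancer line first grown from a metastasis to bone, as 3 control libraries (Ctrl) and 3 libraries of the group labelled MTA1, whose data columns carry the hairpin prefix sh. The labels name a lentivirus and stable clone screening for all libraries, give no number of hairpins or clones, and do not say that libraries came from separate cultures, so p-values cover no more than library-to-library spread, which may be technical. MTA1, a subunit of the NuRD deacetylase complex, had 1185, 1331 and 1352 counts in Ctrl and 528, 572 and 519 in the MTA1 group (log2 fold change -1.21 ± 0.054, adjusted p = 4.3e-13). Total counts ran from 29909172 to 33849262 per library. Levels are given in CPM (counts per library size, scaled with TMM). Where genes are compared with each other or summed, the deposited FPKM is used, which divides by gene length but is not scaled with TMM. On log2(FPKM + 0.1) the median log2 fold change of the tested genes was 0.059, beside 0.0015 in the main fit. FPKM values and sums are therefore slightly high in the MTA1 group relative to CPM. Log2 fold changes are of MTA1 over Ctrl, ± SE, with p adjusted over all tested genes in edgeR's quasi-likelihood test, and means are ± SD over n = 3 libraries. "Rose" and "fell" are used of genes with an adjusted p under 0.05. In bulk RNA, fewer cells of a type and less RNA per cell cannot be told apart.

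PC-3 cells are known for a deletion of CTNNA1, yet the gene was counted in every library. CTNNA1 had 4478, 4742 and 4732 counts in Ctrl and 5758, 5914 and 6239 in the MTA1 group. The epithelial keratins KRT8, KRT18 and KRT7 were abundant in both groups, with group means from 1267.2 to 1987.5 CPM. KRT19 was far lower at 13.9 ± 0.770 CPM in Ctrl and 15.6 ± 0.880 in the MTA1 group, and KRT5, a basal keratin, stood at 0.270 ± 0.103 and 0.321 ± 0.0258. Between the groups KRT7 (-0.42 ± 0.049) and KRT8 (-0.29 ± 0.042) fell. KRT19 rose slightly (0.17 ± 0.067) with overlapping libraries, and KRT18 (-0.084 ± 0.047) and KRT5 (0.25 ± 0.38) did not pass. VIM, the vimentin gene of mesenchymal filaments, rose (0.41 ± 0.042). The part of these filament genes in the junction results was not tested. KLK3, a gene of luminal prostate cells, had 1 count in all 6 libraries together. Summed over the 5 fibroblast markers sought, the level was 15.7 to 18.4 CPM per Ctrl library and 16.7 to 19.5 per MTA1 library, most of it LUM, while PDGFRA had at most 5 counts per library. The 4 listed of 5 leukocyte markers summed to 1.46 to 2.11 and 1.06 to 1.51 CPM, with PTPRC at 0 to 3 counts. The 3 endothelial markers summed to 11.2 to 12.9 and 10.8 to 11.1 CPM, nearly all PECAM1, and the 4 markers of HEK293 or neural cells to at most 1.61 CPM. The cells are called PC-3 here as labelled.

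Junctions differ in what they hold and what they are tied to. Claudins form the strands of the tight junction and set what passes between cells, and the ZO proteins encoded by the TJP genes tie them to actin. In the adherens junction, cadherins bind CTNNB1 and CTNND1 at their tails, and CTNNA1 links that complex to actin, while nectins make a parallel contact. Desmosomes join DSG and DSC cadherins through JUP, plakophilins and DSP to keratin filaments, and connexins form the channels of gap junctions.

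The junction genes moved in both directions, and about as often as other genes. Of the 36 tested, 13 rose and 7 fell, beside 29.5% of all tested genes that rose and 28.6% that fell, or 58.1% in either direction. Their median log2 fold change was 0.034, beside 0.0015 over all tested genes. Libraries of the groups did not overlap for 22 of the 36, and for 62.7% of all tested genes. At least 2-fold changes were called in 6 members, 1 higher and 5 lower, while 6.19% of all tested genes rose (2.85%) or fell (3.33%) that much. CLDN1 was the one upward and CLDN11, TJP3, NECTIN4 and GJB5 were among those downward, each below 7 CPM on average in both groups. CLDN11 entered the test only through its Ctrl level. The files list CLDN1 as ENSG00000163347.6 on chromosome 3, CLDN11 as ENSG00000013297.12 on chromosome 3, TJP3 as ENSG00000105289.15 on chromosome 19 and NECTIN4 as ENSG00000143217.9 and GJB5 as ENSG00000189280.3 on chromosome 1. The 13 members with a mean of at least 10 CPM all changed by less than 2-fold, and of all genes at that level 2.46% rose or fell 2-fold or more. When the test asked for a change of at least 1.2-fold, a threshold added once values were known, 6 members passed as higher (CLDN1, CLDN12, EPCAM, CDH13, CTNNA1 and DSG2) and 5 as lower, CLDN11, TJP3, NECTIN4 and GJB5 among them, beside 30.1% of all genes.

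**Figure D1:**
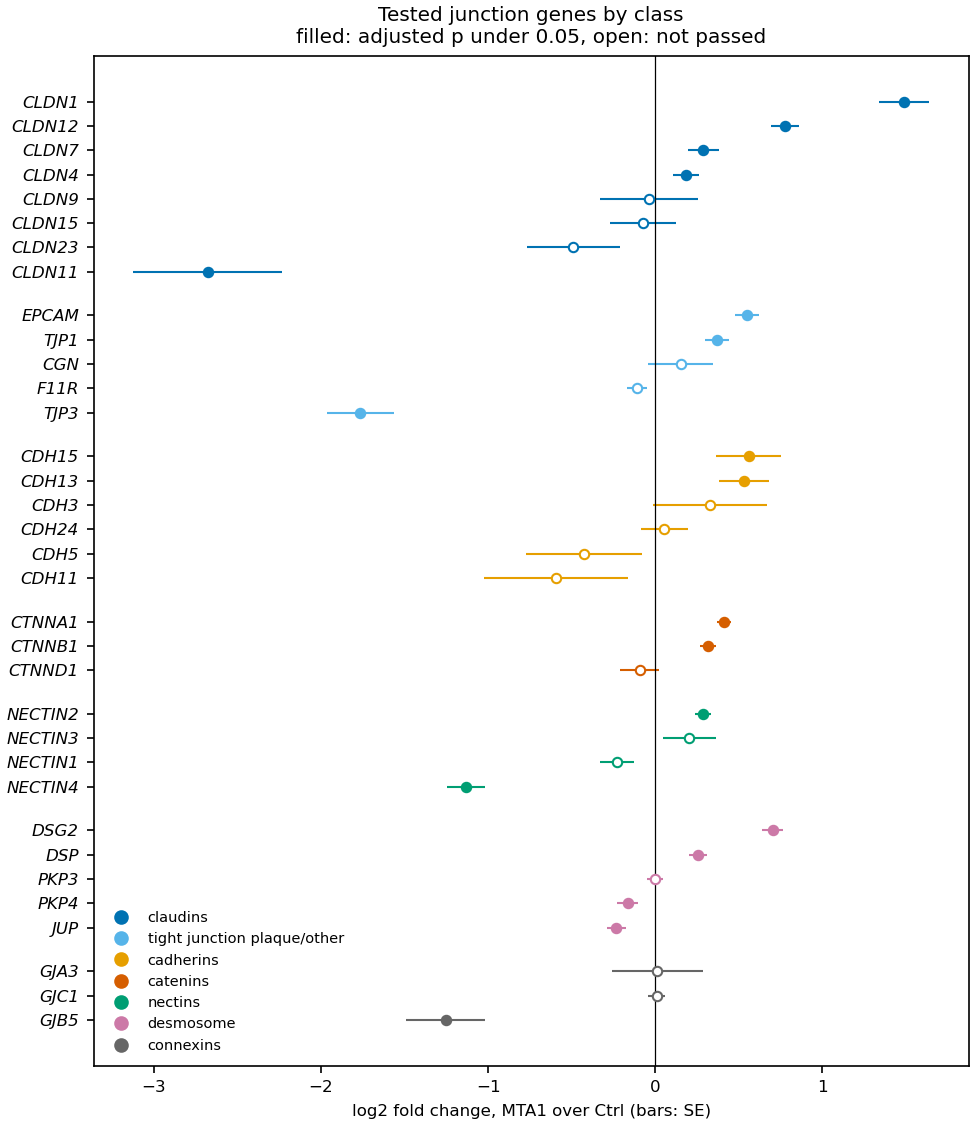
Log2 fold change of MTA1 over Ctrl (x axis, bars show SE) for 34 of the 36 tested junction genes, grouped by class. Filled points passed at an adjusted p under 0.05, 13 to the right of 0 and 6 to the left, and CLDN11 and CLDN1 mark the ends at -2.68 and 1.49.

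The remaining 39 members were hardly expressed. They had at most 60 counts over the 6 libraries together, and 23 of them had 10 or fewer. Among them were OCLN (occludin) of the tight junction, the plakophilins PKP1 and PKP2, the desmosomal cadherins DSC2, DSC3, DSG3 and DSG4, CTNNA2, CTNNA3 and CTNND2, and 7 connexins including GJA1, the connexin 43 gene. A change in these genes was not detectable at this depth, with OCLN as a partial exception. OCLN, singled out once values were known, had 1, 4 and 2 counts in Ctrl and 6, 10 and 11 in the MTA1 group. The ratio was 3.99 with a 95% exact interval of 1.70 to 10.9 that covers counting error only. OCLN was too low for the main test, and it rose when no filter was applied (log2 fold change 1.95 ± 0.62, adjusted p = 0.0056). Neither the interval nor this p allows for the choice of OCLN by its values.

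**Figure D2:**
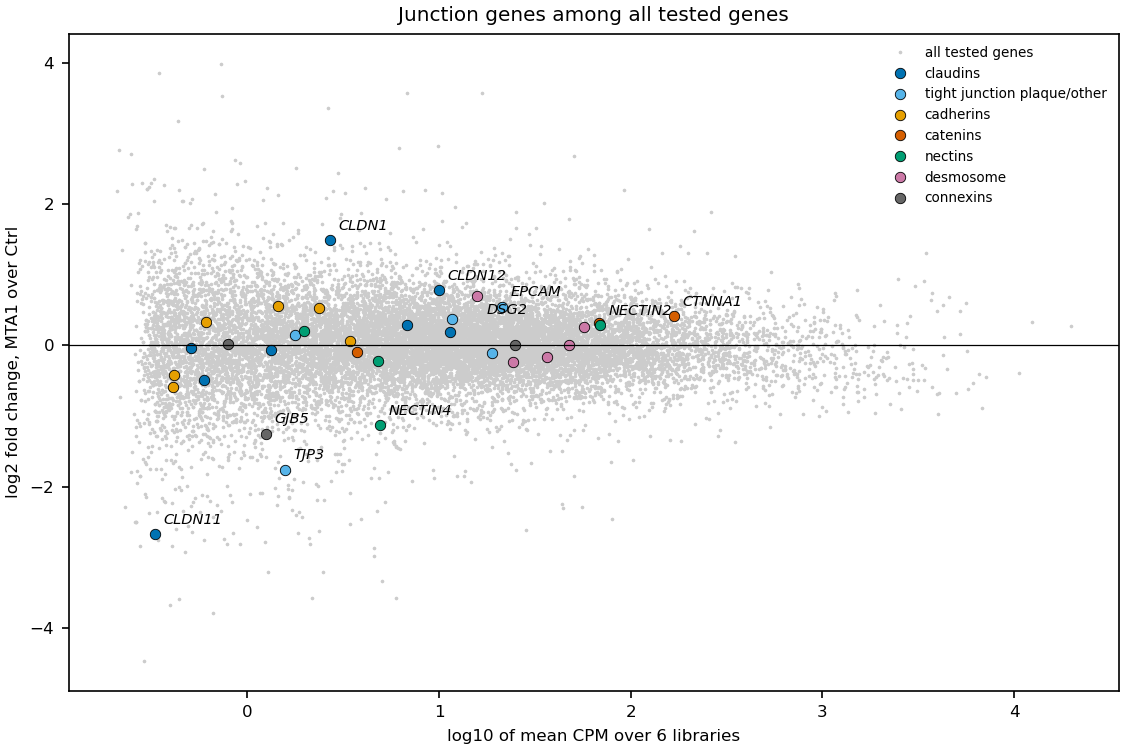
Log2 fold change of MTA1 over Ctrl (y axis) against the log10 of mean CPM (x axis) for all 15423 tested genes in grey and 34 of the 36 tested junction genes in colour by class. The coloured points with at least 2-fold changes lie at the low end of expression, and the abundant CTNNA1 and NECTIN2 lie slightly above 0.

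Promoters were examined because 4 listed regulators, SNAI1, SNAI2, ZEB1 and ZEB2, encode factors that bind the hexamer CAGGTG and repress epithelial junction genes. In these libraries SNAI1 and SNAI2 fell, ZEB2 rose (0.26 ± 0.073) and ZEB1 did not pass. RefSeq promoter windows (GRCh38.p14), from 250 bases before to 50 after a gene's start, were found for 19 of the 36 tested members, with 30 windows in all because some genes have several starts. CAGGTG, searched on both strands, was in 8 of the 30 windows (26.7%) and in 20.6% of all 35116 RefSeq windows, coding or not. By gene it was in 4 of the 10 members that rose and in 3 of the 5 that fell among those with a window. Here a gene counts if any of its windows holds the hexamer, so these shares cannot be set against the 20.6% of windows. The share by gene over all genes was not taken. GGGCGG, the GC box, was in 24 of 30 windows (80.0%) against 45.0% of all, TGANTCA of AP-1 in 2 (6.67% against 7.71%) and TATAAA in 1 (3.33% against 11.5%). For each motif the 30 windows are of tested genes only, while the 35116 are of genes tested or not. The sets are unlike, so a difference in share cannot be laid to junction genes. The 250 bases before the start are given below for CLDN1, which rose most and holds no CAGGTG, and for 4 members that hold it: CLDN7, DSG2 and DSP, which rose, and NECTIN4, which fell. CAGGTG and its reverse complement CACCTG are in capitals.
CLDN1 (chr3:190322447-190322696, minus strand): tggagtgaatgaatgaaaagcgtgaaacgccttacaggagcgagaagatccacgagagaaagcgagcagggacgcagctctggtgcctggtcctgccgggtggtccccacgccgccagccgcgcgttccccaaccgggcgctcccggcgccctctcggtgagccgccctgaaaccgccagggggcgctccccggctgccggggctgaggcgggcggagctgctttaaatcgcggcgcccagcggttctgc
CLDN7 (chr17:7262479-7262728, minus strand): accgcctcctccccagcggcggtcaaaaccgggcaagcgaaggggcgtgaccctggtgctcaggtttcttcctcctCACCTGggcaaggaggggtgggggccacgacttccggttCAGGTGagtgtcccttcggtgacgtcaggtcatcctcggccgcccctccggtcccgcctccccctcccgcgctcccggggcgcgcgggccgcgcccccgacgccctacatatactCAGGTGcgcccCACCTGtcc
DSG2 (chr18:31497927-31498176, plus strand): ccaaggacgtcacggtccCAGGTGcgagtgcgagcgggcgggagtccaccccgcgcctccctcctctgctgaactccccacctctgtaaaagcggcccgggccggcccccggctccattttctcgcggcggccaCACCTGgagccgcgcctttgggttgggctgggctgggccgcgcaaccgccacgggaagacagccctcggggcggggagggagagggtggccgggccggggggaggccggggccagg
DSP (chr6:7541421-7541670, plus strand): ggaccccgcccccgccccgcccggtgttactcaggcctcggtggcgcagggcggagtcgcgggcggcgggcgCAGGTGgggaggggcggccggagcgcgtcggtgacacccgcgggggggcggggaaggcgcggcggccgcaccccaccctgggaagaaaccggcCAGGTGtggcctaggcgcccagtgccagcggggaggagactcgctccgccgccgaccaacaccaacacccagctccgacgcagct
NECTIN4 (chr1:161089559-161089808, minus strand): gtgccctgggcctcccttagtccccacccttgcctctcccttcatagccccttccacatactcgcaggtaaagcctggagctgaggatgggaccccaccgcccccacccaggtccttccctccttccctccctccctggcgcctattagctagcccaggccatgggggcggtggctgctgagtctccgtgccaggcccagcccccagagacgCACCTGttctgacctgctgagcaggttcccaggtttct
CLDN7 had 4 matches before the start, beginning 174, 135, 20 and 9 bases upstream, and 1 more just after it, in 1 of its 2 windows. Windows with 5 or more matches made up 0.094% of all windows. That window was taken as the one of its 2 with most matches, and 5 is its own count. The share therefore does not measure how unusual it is. The matches began 232 and 116 bases upstream in DSG2, 178 and 85 in DSP and 38 in NECTIN4. A match is a run of letters, not a measured binding site, and genes with it moved in both directions.

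Of 18 claudins listed, 8 were tested, 4 rose and 1 fell. CLDN1, a sealing claudin, had 1.36, 1.22 and 1.67 CPM in the Ctrl libraries, given in order of replicate number here and throughout, and 3.90, 4.01 and 4.06 in the MTA1 libraries. All MTA1 libraries were above all Ctrl libraries, by 2.81-fold in the fit (log2 fold change 1.49 ± 0.15, adjusted p = 4.6e-08). CLDN12, an atypical claudin without the usual PDZ-binding tail, went from 7.90, 6.57 and 7.54 to 13.4, 12.1 and 12.2 CPM, again without overlap (log2 fold change 0.78 ± 0.082, adjusted p = 9.9e-08). Its exons overlap those of GTPBP10 and CDK14 on the same strand in GENCODE 29, so its reads are uncertain.

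The most abundant claudins moved less. CLDN7 was at 5.83, 5.77 and 6.78 CPM in Ctrl and 7.81, 7.70 and 6.96 in the MTA1 group (log2 fold change 0.29 ± 0.094, adjusted p = 0.012). The highest Ctrl library lay just under the lowest MTA1 library. Its call ended without Ctrl replicate 1 (adjusted p = 0.057) or Ctrl replicate 2 (0.065), and an exon of ELP5 overlaps it on the other strand. CLDN4, another claudin of simple epithelia, was at 9.71, 10.7 and 11.4 and 12.8, 12.05 and 11.4 CPM (log2 fold change 0.19 ± 0.077, adjusted p = 0.045). The highest Ctrl and the lowest MTA1 library almost met, both at 11.4 CPM. The call ended without Ctrl replicate 1 (adjusted p = 0.24) or 2 (0.092), without MTA1 replicate 1 (0.16) or 2 (0.081), with DESeq2 size factors (0.053) and in the DESeq2 test (0.13).

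CLDN11, the claudin of myelin and of Sertoli cells, went the other way from a very low level. It had 24, 14 and 17 counts in Ctrl and 2, 3 and 3 in the MTA1 group (log2 fold change -2.68 ± 0.45, adjusted p = 2.7e-05). The ratio was 0.151 with a 95% exact interval of 0.062 to 0.318 for counting error. With 0.066, 0.095 and 0.097 CPM in the MTA1 libraries, CLDN11 entered the test only through its Ctrl level. Its p and interval are therefore given as description only. Under the filter of 1 CPM in 3 libraries it was not tested. The other tested claudins, all low, did not pass: CLDN15 (-0.074 ± 0.20), CLDN9 (-0.038 ± 0.29) and CLDN23 (-0.49 ± 0.28). Per length, CLDN7 and CLDN4 led the class in Ctrl with mean FPKM of 2.12 and 1.95, then CLDN12 with 0.943 and CLDN1 with 0.337. The share of CLDN1 in the summed claudin FPKM was 5.14% in Ctrl and 11.4% in the MTA1 group, and that of CLDN12 was 14.5% and 19.3%. The sum over claudins was 6.29 to 6.99 FPKM per Ctrl library and 8.41 to 9.16 per MTA1 library.

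**Figure D3:**
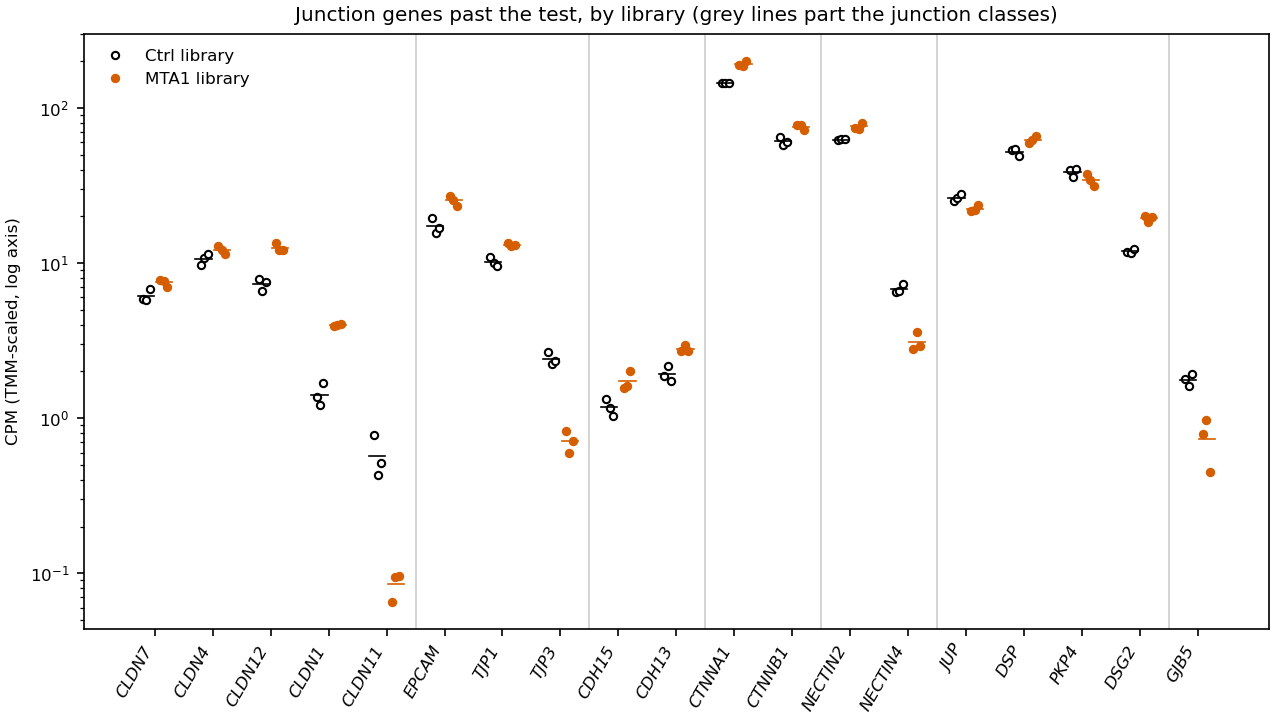
CPM (log axis) in each library of 19 of the 20 junction genes that passed, with open points for Ctrl, filled points for MTA1 and short lines for group means. The groups part for every gene shown, in CLDN4 only narrowly at 11.4 CPM, except for PKP4, where Ctrl spans 35.7 to 40.1 and MTA1 spans 31.6 to 37.6 CPM.

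Around the claudins, 5 of 7 further genes of the tight junction and membrane were tested, of which 2 rose and 1 fell. The 2 ZO scaffolds that were tested moved apart. TJP1, which encodes ZO-1, stood at 10.97, 9.92 and 9.54 CPM in Ctrl and 13.4, 12.8 and 13.05 in the MTA1 group (log2 fold change 0.37 ± 0.073, adjusted p = 0.00020). TJP3, for ZO-3, stood at 2.69, 2.23 and 2.34 and 0.820, 0.599 and 0.709 CPM, or 29.4% of Ctrl in the fit (log2 fold change -1.76 ± 0.20, adjusted p = 2.2e-07). In both genes the groups did not overlap, in opposite directions. Per length, TJP1 was at a mean of 0.773 FPKM and TJP3 at 0.527 in Ctrl, and at 1.05 and 0.163 in the MTA1 group.

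EPCAM, an epithelial adhesion protein that binds CLDN7, had 19.6, 15.7 and 16.8 CPM in Ctrl and 27.2, 25.6 and 23.3 in the MTA1 libraries. Every MTA1 library was above every Ctrl library (log2 fold change 0.55 ± 0.074, adjusted p = 2.4e-06). By FPKM it was the most abundant of these 7 genes, with means of 6.17 and 9.44. F11R, the junctional adhesion molecule JAM-A, was next at 3.34 and 3.25 FPKM. Its CPM values were 20.5, 20.03 and 18.2 in Ctrl and 18.1, 18.7 and 17.7 in the MTA1 group, with overlapping libraries (log2 fold change -0.11 ± 0.060, adjusted p = 0.14). It passed as lower without Ctrl replicate 3 (adjusted p = 0.046). CGN, the plaque protein cingulin, did not pass (0.15 ± 0.19).

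Alpha- and beta-catenin of the adherens junction rose together by less than 1.5-fold. Of 6 catenin genes 3 were tested and 2 rose. CTNNA1 (alpha-catenin) was at 145, 145 and 144 CPM in Ctrl and 189, 187 and 201 in the MTA1 group (log2 fold change 0.41 ± 0.041, adjusted p = 3.7e-08). The Ctrl libraries lay close together, far below the MTA1 libraries. CTNNB1 (beta-catenin), also a Wnt effector, had 64.5, 57.4 and 60.4 and 77.8, 77.3 and 71.9 CPM (log2 fold change 0.32 ± 0.050, adjusted p = 1.8e-05). No Ctrl library reached the lowest MTA1 library. The 2 genes kept similar shares of the summed catenin FPKM, CTNNA1 at 75.1% in Ctrl and 76.5% in the MTA1 group and CTNNB1 at 23.7% and 22.6%. CTNND1 (p120-catenin), chosen after its values were seen, was low at 3.83 ± 0.178 and 3.59 ± 0.261 CPM and did not pass (-0.092 ± 0.12). The read-through gene TMX2-CTNND1, counted as a gene of its own, shares exons with it and had 148 to 175 counts per Ctrl library and 208 to 252 per MTA1 library, so the level of CTNND1 is uncertain.

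The cadherin genes of the list gave little RNA. Of 17 listed, 6 were tested and 2 passed, both as higher. CDH13, T-cadherin, which is held in the membrane by a lipid anchor, had 1.88, 2.17 and 1.73 CPM in Ctrl and 2.69, 2.96 and 2.71 in the MTA1 group (log2 fold change 0.53 ± 0.15, adjusted p = 0.0050). CDH15, the muscle cadherin, had 1.33, 1.16 and 1.03 and 1.57, 1.61 and 2.00 CPM (log2 fold change 0.56 ± 0.19, adjusted p = 0.018). The groups did not overlap in either gene, but the call for CDH15 ended without Ctrl replicate 3 (adjusted p = 0.077), without MTA1 replicate 3 (0.094) and in the DESeq2 test (0.064). CDH24, which led the class by FPKM (0.773 in Ctrl), overlapped between groups at 3.82, 3.18 and 3.10 and 3.94, 2.84 and 3.71 CPM (0.055 ± 0.14). CDH3 (P-cadherin, 0.33 ± 0.34), CDH5 (-0.43 ± 0.35) and CDH11 (-0.59 ± 0.43) were under 1 CPM and did not pass. The sum over the class, in which 3 of the 17 genes (CDH6, CDH8 and CDH19) have no FPKM value, was only 1.29 to 1.78 FPKM per library. Outside the list, CDH2 (N-cadherin) was the main classical cadherin. It rose from 58.99 ± 1.74 to 84.4 ± 3.04 CPM, while CDH1 (E-cadherin) stood at 0.467 ± 0.0641 and 0.452 ± 0.0940 CPM.

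Nectins were dominated by 1 gene, and the 2 most abundant moved apart. All 4 were tested, 1 rose and 1 fell. NECTIN2, also a poliovirus receptor relative and an immune ligand, had 61.7, 62.7 and 62.7 CPM in Ctrl and 74.2, 73.5 and 80.4 in the MTA1 group (log2 fold change 0.29 ± 0.046, adjusted p = 2.2e-05). NECTIN4, a nectin of epithelial cancers and the target of an antibody-drug conjugate, had 6.47, 6.63 and 7.30 and 2.79, 3.60 and 2.90 CPM, or 45.6% of Ctrl in the fit (log2 fold change -1.13 ± 0.11, adjusted p = 5.0e-08). Neither gene overlapped between groups. The share of NECTIN2 in the summed nectin FPKM was 85.3% in Ctrl and 92.1% in the MTA1 group. NECTIN1 (log2 fold change -0.23 ± 0.10, adjusted p = 0.064) and NECTIN3 (log2 fold change 0.21 ± 0.16, adjusted p = 0.28), singled out once values were known, missed the threshold although their groups did not overlap.

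**Figure D4:**
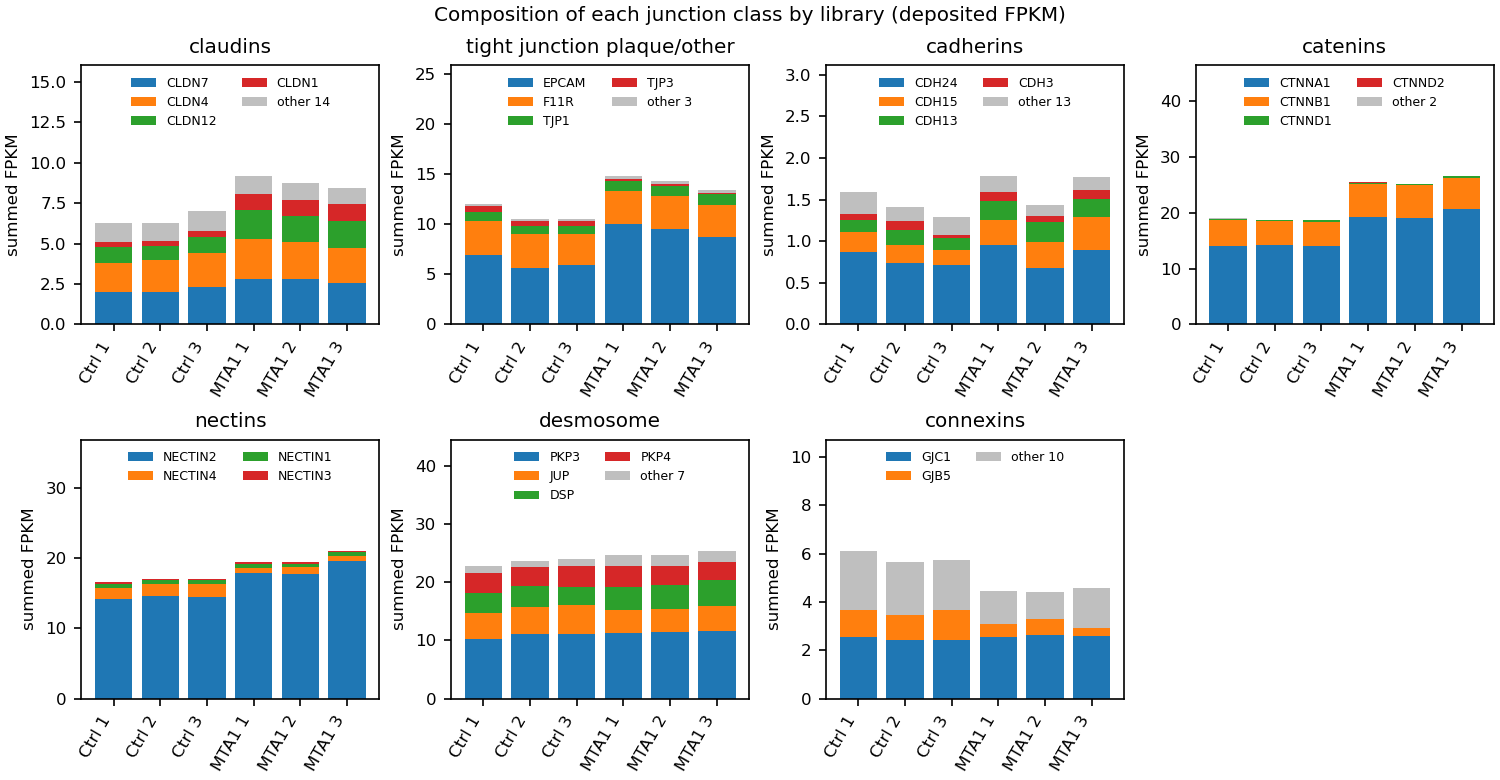
Summed deposited FPKM (y axis) of each junction class in each of the 6 libraries (x axis), stacked by up to 4 abundant genes and the rest. NECTIN2 and CTNNA1 fill most of their classes, and the GJB5 part of the connexin bars is smaller in the MTA1 libraries.

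Desmosomal genes moved in both directions. Of 11 genes 5 were tested, 2 rose and 2 fell. The desmosomal cadherin DSG2, the only DSG or DSC gene with enough counts, had 11.8, 11.6 and 12.4 CPM in Ctrl and 20.2, 18.4 and 19.8 in the MTA1 group (log2 fold change 0.70 ± 0.064, adjusted p = 1.1e-08). DSP, the desmoplakin that grips keratin filaments, had 53.2, 54.5 and 48.9 and 59.4, 61.7 and 65.9 CPM (log2 fold change 0.26 ± 0.052, adjusted p = 0.00028). Both were higher in each MTA1 library than in any Ctrl library. An antisense gene, DSG2-AS1, overlaps an exon of DSG2.

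None of the armadillo proteins between cadherin and desmoplakin passed as higher. JUP (plakoglobin) had 25.1, 26.1 and 27.8 CPM in Ctrl and 21.8, 21.9 and 23.7 in the MTA1 group, without overlap (log2 fold change -0.23 ± 0.057, adjusted p = 0.0016). Its call ended on log2(FPKM + 0.1) (adjusted p = 0.051) and log2(FPKM + 1) (0.053). PKP3, the plakophilin with the highest level, was at 45.6, 48.6 and 49.3 and 47.2, 48.1 and 48.2 CPM, a difference of 0.00031 ± 0.047 on the log2 scale (adjusted p = 0.996). PKP4, a plakophilin relative found in several junctions, had 39.9, 35.7 and 40.1 and 37.6, 34.2 and 31.6 CPM (log2 fold change -0.16 ± 0.063, adjusted p = 0.032). Its groups overlapped, and its call ended on both FPKM scales (adjusted p = 0.31 and 0.32), with library size as the only scaling (0.20) and without any single library of Ctrl replicates 1 (0.086) and 3 (0.12) or MTA1 replicates 2 (0.091) and 3 (0.16). Per length, PKP3 led the desmosomal genes at 10.9 FPKM in Ctrl and 11.4 in the MTA1 group, and DSG2 was the lowest of the 5 tested at 1.08 and 1.85. The share of DSG2 in the summed desmosomal FPKM was 4.61% in Ctrl and 7.43% in the MTA1 group, and that of JUP 19.6% and 16.5%.

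Among connexins, GJB5 fell and the most abundant connexin stayed within its spread. Of 12 genes 5 were tested and 2 passed, both as lower. GJB5, a beta connexin, had 1.78, 1.62 and 1.91 CPM in Ctrl and 0.787, 0.978 and 0.451 in the MTA1 group (log2 fold change -1.25 ± 0.24, adjusted p = 0.00012). Its groups did not overlap, and the level left was 41.9% of control. GJC1 (connexin 45) had 25.8, 24.3 and 24.6 and 24.8, 25.4 and 24.9 CPM, with overlapping libraries (0.0090 ± 0.052). GJA3, a connexin of the lens, did not pass (0.013 ± 0.27). In FPKM, GJC1 was 42.2% of the connexin sum in Ctrl and 58.1% in the MTA1 group, and GJB5 19.4% and 11.01%. The sum itself was 5.67 to 6.13 FPKM per Ctrl library and 4.40 to 4.58 per MTA1 library.

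Genes that work beside the junctions were taken from a list of 55, of which 54 were listed in the files and 39 tested. Of these, 12 rose and 8 fell, beside the 29.5% and 28.6% of all tested genes, and the median of their log2 fold changes was 0.088. PPL (periplakin), a relative of desmoplakin that binds intermediate filaments, had 15.9, 15.7 and 14.8 CPM in Ctrl and 46.8, 47.8 and 51.4 in the MTA1 group (log2 fold change 1.65 ± 0.056, adjusted p = 6.1e-15). EVPL (envoplakin), its partner, rose as well (0.39 ± 0.050). VCL (vinculin), which binds alpha-catenin under tension, rose from 29.4 ± 1.80 to 47.3 ± 1.89 CPM (0.69 ± 0.055), with the actin cross-linkers ACTN1 (0.59 ± 0.050) and ACTN4 (0.30 ± 0.045). MPDZ, a tight junction scaffold with many PDZ domains, rose (0.77 ± 0.085), as did the pannexin channel gene PANX1 (0.43 ± 0.062). Other scaffolds, linkers and membrane proteins of the list were mixed. MAGI3 (0.28 ± 0.11) and the junctional adhesion molecule JAM3 (0.20 ± 0.069) rose slightly, while CGNL1, a cingulin relative, fell (-0.55 ± 0.22). AFDN (0.11 ± 0.066), MAGI1 (-0.030 ± 0.067), AMOTL1 (0.19 ± 0.27) and AMOTL2 (0.28 ± 0.12) did not pass.

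LLGL2, a basolateral polarity gene, had 27.2, 27.2 and 27.8 CPM in Ctrl and 15.03, 14.5 and 14.98 in the MTA1 group (log2 fold change -0.89 ± 0.055, adjusted p = 3.7e-11). PRKCI, the atypical protein kinase C of the apical complex, fell from 20.7 ± 0.652 to 14.8 ± 0.667 CPM (-0.49 ± 0.060). PERP, a tetraspan protein of desmosomes, fell from 103 ± 1.87 to 80.9 ± 0.933 CPM (-0.35 ± 0.041). PATJ, a scaffold of the apical Crumbs complex, fell from 7.31 ± 0.145 to 6.19 ± 0.351 CPM (-0.24 ± 0.087). Most tested polarity genes of the list did not pass, namely PARD3 (-0.095 ± 0.041), PARD6B (0.28 ± 0.19), PARD6G (-0.34 ± 0.24), PRKCZ (0.059 ± 0.050), PALS1 (-0.16 ± 0.10), SCRIB (-0.034 ± 0.044), DLG1 (0.088 ± 0.058), DLG5 (-0.11 ± 0.056) and LLGL1 (0.23 ± 0.11).

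Of the 12 regulators on this list 7 were tested, 2 rose and 3 fell, where 58.1% of all tested genes passed in either direction. SNAI2 (Slug) had 5.66, 5.44 and 5.53 CPM in Ctrl and 1.02, 1.45 and 1.42 in the MTA1 group (log2 fold change -2.09 ± 0.14, adjusted p = 1.6e-10). SNAI1 (Snail) had 19.8, 20.2 and 19.5 and 12.1, 13.4 and 13.9 CPM (log2 fold change -0.60 ± 0.064, adjusted p = 1.2e-07). Both were lower in every MTA1 library. ZEB2 rose slightly (0.26 ± 0.073), TWIST1 fell slightly (-0.14 ± 0.051) in a call that ended under 8 of the 18 alternatives, and ZEB1 did not pass (-0.16 ± 0.085). The epithelial regulators GRHL2, ESRP1, ESRP2, OVOL1 and OVOL2 had at most 7 counts in any library, whereas GRHL1 rose from 0.929 ± 0.159 to 1.48 ± 0.400 CPM (0.67 ± 0.24) with overlapping libraries. A part of these regulators in the changes of the junction genes was not tested.

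**Figure D5:**
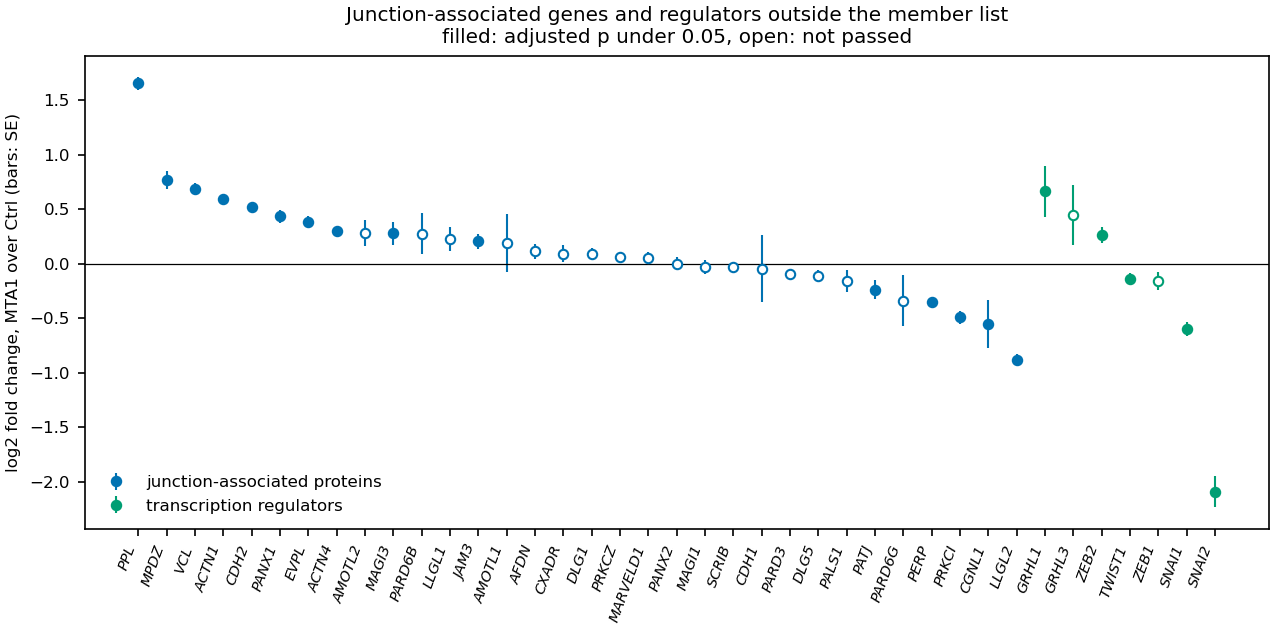
Log2 fold change of MTA1 over Ctrl (y axis, bars show SE) for the 39 tested genes of the list beside the junction genes, with regulators of transcription in green. Filled points passed at an adjusted p under 0.05, 12 above 0 and 8 below, with PPL highest at 1.65 and SNAI2 lowest at -2.09.

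Reads of some members can be shared with other genes. In GENCODE 29, 8 of the 36 tested members have an exon that overlaps an exon on the opposite strand, and 6 one of another gene on the same strand. The first are CDH3, CDH13, CLDN7, CTNNA1, DSG2, NECTIN1, NECTIN2 and PKP4. The second, whose reads strand cannot part, are CDH11, CLDN7, CLDN11, CLDN12, CTNND1 and F11R. Whether the counting used strand is not given in the sources used here.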

How the data were processed

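RNA of 3 Ctrl and 3 MTA1 libraries was made into stranded total RNA libraries with a SMARTer kit, per the labels' protocols. The authors deposited whole-number counts per gene without normalization, and FPKM values scaled for gene length and depth (per the file headers and the values). The log2 ratio of counts to FPKM differed between libraries by a constant, with an SD over 4117 genes of at most 0.00039. Aligner, counter, strand setting and genome build: not given in the sources used here. DESeq2 is listed in the submitters' processing notes, its role unstated. The MTA1 columns were matched by name and the NC columns, the group that remained, to Ctrl by number.

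The counts went into edgeR 4.0.16 (R 4.3.3), using filterByExpr, TMM and the quasi-likelihood test with group as the only term, 2-sided, with Benjamini-Hochberg adjustment over 15423 tested genes at 0.05, and the common biological coefficient of variation was 4.45%. The script was tested on simulated data. No library repeated another: within groups, squared differences per gene were 3.25 to 9.12 times counting noise. Alternatives were DESeq2 1.42.0 (size factors and Wald test), other scalings and filters, limma 3.58.1 (voom and log2 FPKM with pseudocounts 0.1 and 1), the replicate block, a fit without mitochondrial genes and the 20 top genes, each library left out and, added once values were known, a minimum fold of 1.2. PALS1 of the pathway list was found under its older symbol MPP5.

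The members, lists and rules were chosen with earlier results of these data known. Values per library are given, by class, for up to 6 members past the threshold with the smallest p and a mean of at least 1 CPM and for the 2 highest by FPKM. Members that missed the threshold are named from 5 CPM, and other names were chosen after their values were seen. Of the pathway list, up to 6 genes in each direction are named by p, and CDH1 and CDH2 by choice, while the others of that list were added once values were known. No protein sequences were used here. Some genes are counted with their class but not reported here.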

Additional observations from a re-analysis of the deposited data

How the results depend on the processing

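Over 18 alternatives, the members that rose numbered 11 to 14 and those that fell 5 to 7, except under a minimum fold of 1.2, which left 6 and 5. That setting, chosen after the data were seen, also left 4650 of all genes, 12 of the pathway list, 3 claudins, 1 cadherin, 1 catenin, 1 nectin and 1 desmosomal gene. The DESeq2 Wald test left 1 cadherin, and both FPKM scales left 2 desmosomal genes. With 1 library left out, the called claudins ranged from 3 (without Ctrl replicate 1 or 2) to 5, the tight junction plaque genes from 3 to 5 (without Ctrl replicate 3) and the cadherins from 1 (without Ctrl or MTA1 replicate 3) to 2. Of 44 genes followed with MTA1 among them, 27 kept direction and call in every alternative that could test them. Log2(FPKM + 1) shrank low genes, such as CLDN1 to 0.58 and TJP3 to -0.39, since the added 1 is large beside their values.

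Direction turned in genes near 0 that passed in no fit. PKP3 was at -0.0059 with DESeq2 size factors and in the DESeq2 test, -0.0030 with upper-quartile scaling and -0.0037 with the 1 CPM filter. CDH1 was at 0.019 with library size only. With 1 library left out, PKP3 ranged from -0.041 to 0.018, CDH24 from -0.037 to 0.19, GJC1 from -0.013 to 0.027 and CDH1 from -0.22 to 0.068. The cause was not tested.

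The replicate number as a block gave 9139 called genes, with 13 members higher and 7 lower, and 22 genes of the pathway list. Deviations of same-numbered libraries correlated at 0.29, -0.095 and 0.073, and those of differently numbered ones at -0.33 to 0.25. Deviations from means of only 3 libraries cannot decide whether the numbers pair the libraries. Depth limits the 39 untested members.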

Other observations

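Several junction genes lie next to one another in the genome. CLDN4 rose beside CLDN3, which had at most 2 counts per library, and DSG2 rose beside DSG3, which had at most 2. Whether neighbours move together was not tested.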
